A study of Mus musculus with 12 samples.

Results

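The voltage-gated sodium channel genes of the adult mouse hippocampus were compared between libraries labelled Wildtype and libraries labelled Gadd45a-KO. The 7 genes were picked by name, as sodium channel subunit genes of the brain: the alpha subunit genes Scn1a, Scn2a, Scn3a and Scn8a, and the beta subunit genes Scn2b, Scn3b and Scn4b. They were found by Ensembl gene ID (Scn2a is called Scn2a1 in the annotation used) among 37991 genes counted in each library, and all 7 were among the 16399 genes with enough reads to be tested. Poly(A) RNA was sequenced from hippocampi of 12 mice, with 6 libraries per label. The mice were C57BL/6N animals of 6 to 7 months, killed 1 h after passive avoidance (PA), a test in which a mouse is given a mild foot shock on entering a dark compartment. Those labelled Wildtype were wild-type siblings. Those labelled Gadd45a-KO were Gadd45a-/- animals from an intercross of heterozygotes, lacking the gene in the whole body, with the first 3 exons replaced by a neomycin cassette driven by the phosphoglycerate kinase promoter and exon 4 left in place. Mice of both labels had been through PA, so that the comparison is between genotypes and not between trained and untrained mice.

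A sodium channel of a central neuron consists of a large alpha subunit, which folds into the pore and the voltage sensors, and of beta subunits with a single membrane span, which alter gating and act as adhesion molecules. Scn1a encodes Nav1.1, which is prominent in GABAergic interneurons. Scn2a encodes Nav1.2 of excitatory neurons, Scn3a encodes Nav1.3, known mainly from the embryonic brain, and Scn8a encodes Nav1.6, the channel of mature axon initial segments and nodes of Ranvier. Scn2b and Scn4b encode beta subunits linked to alpha subunits by a disulfide bond, whereas the product of Scn3b associates without one.

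The 4 alpha genes are close relatives, so that a short read can fit more than 1 of them. Over whole exons, 7.63% of all 51-base words of Scn2a, the length of a read, also occurred in another sodium channel gene, most of them in Scn3a. The share was 6.25% for Scn3a, 3.98% for Scn1a, 0.0446% for Scn8a and 0 for the beta genes. Reads with several alignments were counted for no gene, so reads from the shared words were probably left out. Values of the Scn2a and Scn3a pair are uncertain to that extent. The exons of the 7 genes overlap those of no other annotated gene.

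Scn3a (chr2:65295175-65405684), Scn2a (chr2:65458914-65605504) and Scn1a (chr2:66108838-66278897) lie in a cluster on chromosome 2. Scn8a lies at chr15:100785829-100876360, Scn3b at chr9:40076801-40099203, and Scn2b (chr9:44925959-44938153) and Scn4b (chr9:44946520-44962235) are separated by 8366 nt. The alpha genes had exonic lengths, the union of all annotated exons, of 9259 to 12579 nt, between percentiles 93.9 and 98.0 of the genes tested. The beta genes had 4562 to 4940 nt, between percentiles 65.7 and 70.1. Most of the length of a beta mRNA is 3′UTR, with coding regions of 645 to 684 nt and 3′UTRs of 3180 to 3766 nt. The GC content of the exons was 40.6% in Scn3a, 41.9% in Scn1a and 43.2% in Scn2a, below the 49.9% of Scn8a and the 48.5% to 54.3% of the beta genes.

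Gene reads numbered from 44594261 to 55540601 per library. Reads on Gadd45a went against the labels: 102 to 154 reads were counted in libraries labelled Wildtype and 946 to 1179 in libraries labelled Gadd45a-KO. By edgeR this came to 3.06 on the log2 scale (SE 0.09). Counts per whole gene do not separate the replaced exons from exon 4. Its overlapping antisense gene E230016M11Rik had 147 to 194 and 4 to 14 reads. Each direction below is therefore given between labels. Reads on no annotated feature made up 12.6% to 13.9% of the reads in libraries labelled Wildtype and 11.5% to 12.6% in those labelled Gadd45a-KO, without overlap. Levels are given as CPM, the usual scaling of a gene's reads by the size of its library. The summed CPM of 10 thalamic marker genes were 225 to 276 in the libraries labelled Wildtype and 231 to 712 in those labelled Gadd45a-KO, where replicates 2 and 3 stood apart with 493 and 712. Replicate 3 also had the highest summed level of 7 oligodendrocyte genes, 7348 CPM against 2328 to 3755 in the other 11 libraries. Markers of hippocampal excitatory neurons summed to 2559 to 3007 and 2548 to 2925 CPM. The choroid plexus marker Kcnj13, with 0 to 24 reads, was the only marker at 0 in a library. Of 67 markers in 10 lists of cell types and neighbouring tissues, 0 passed 1% FDR by edgeR or DESeq2, while 3 were lower and 18 higher at an unadjusted p under 0.05, beside 9.35% of all genes tested that were lower and 4.34% that were higher at that threshold. Among the 18 were 7 of 10 thalamic and 7 of 7 oligodendrocyte genes. The part of these cells in the differences below was not tested beyond leaving out replicates 2 and 3.

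At the 1% false discovery rate (FDR) of edgeR's quasi-likelihood test, 2 of the 7 sodium channel genes, the alpha genes Scn2a and Scn3a, had a lower level under the Gadd45a-KO label. Among all genes tested 430 were lower, or 2.62%. No sodium channel gene was higher at 1% FDR by edgeR or by DESeq2. Among all genes tested, 4 were higher by edgeR (0.0244%) and 0.112% by DESeq2. None of the 7 was higher at an unadjusted p under 0.05 either, where 4.34% of all genes were. At 5% FDR Scn1a was lower as well, so that 3 of the 4 alpha genes and 0 of the 3 beta genes were called, where 4.43% of all genes were lower. That call of Scn1a held without Gadd45a-KO replicate 3, Wildtype replicate 1 or Wildtype replicate 4, and was lost without each of the other 9 libraries (edgeR adjusted p from 0.0572 to 0.138), with an offset for GC content (0.0859) and, narrowly, when only genes with at least 10 reads in every library were tested. At an unadjusted p under 0.05, 4 of the 7 genes were lower, the fourth being Scn3b, where 9.35% of all genes were. DESeq2 called the same number as edgeR at 1% FDR, 0 of them beta genes, and 4.15% of all genes with an adjusted p. In bulk tissue, fewer cells of a type and less RNA per cell cannot be told apart.

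Scn2a, the Nav1.2 gene, had 281 CPM in its lowest, 322 in its median and 361 in its highest library labelled Wildtype, and 225, 244 and 282 in those labelled Gadd45a-KO. The label means were 323 ± 30.5 and 249 ± 24.8 CPM (SD, n = 6 each). In 5 of the 6 libraries labelled Gadd45a-KO the level lay below all libraries labelled Wildtype, and the remaining library only just reached the lowest Wildtype value. The log2 fold change was -0.38 (SE 0.07, edgeR adjusted p = 0.00552), a level lower by 23.0%, with a two-sided exact permutation p of 0.00433.

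Scn3a, the alpha gene of the lowest level, had the greatest log2 fold change of the 7 in size. It had 59.7, 64.2 and 74.0 CPM (lowest, median, highest) under the Wildtype label and 40.6, 49.1 and 57.6 under the Gadd45a-KO label, with means of 65.1 ± 4.80 and 48.6 ± 6.78 (SD, n = 6 each). The 2 labels did not overlap, as for 3.12% of all genes tested in this direction and 0.183% in the other. The log2 fold change was -0.42 (SE 0.08, edgeR adjusted p = 0.00597), and the exact permutation p of 0.00216 is the smallest that 6 against 6 libraries can give.

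Scn1a, the alpha gene of interneurons, had 107, 117 and 132 CPM under the Wildtype label and 90.4, 98.7 and 114 under the Gadd45a-KO label, with 5 of the 6 latter libraries below all of the former. The means were 119 ± 10.9 and 99.6 ± 8.89 (SD, n = 6 each). The log2 fold change was -0.26 (SE 0.07, edgeR adjusted p = 0.0400), past 5% but not 1% FDR. The 8 markers of GABAergic interneurons had a median log2 fold change of -0.05, with 0 of 8 past 1% FDR by edgeR or DESeq2. At an unadjusted p under 0.05, 1 of them was lower, beside 9.35% of all genes.

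Scn8a, the alpha gene of the highest level, did not pass the test. Its libraries ranged from 545 to 637 CPM with a median of 598 under the Wildtype label and from 528 to 623 with a median of 571 under the Gadd45a-KO label, and the ranges overlapped almost throughout. The means were 593 ± 34.8 and 574 ± 34.9 (SD, n = 6 each), and the log2 fold change was -0.05 (edgeR adjusted p = 0.781), with a 95% interval from -0.14 to 0.05. The sign of this value turned to 0.04 once the fit allowed for exonic length. A separate gene model with the same symbol, which ends 14599 nt upstream of the main one, held 123 to 302 reads per library and had a log2 fold change of -0.21 (SE 0.15, edgeR adjusted p = 0.62).

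**Figure D1:**
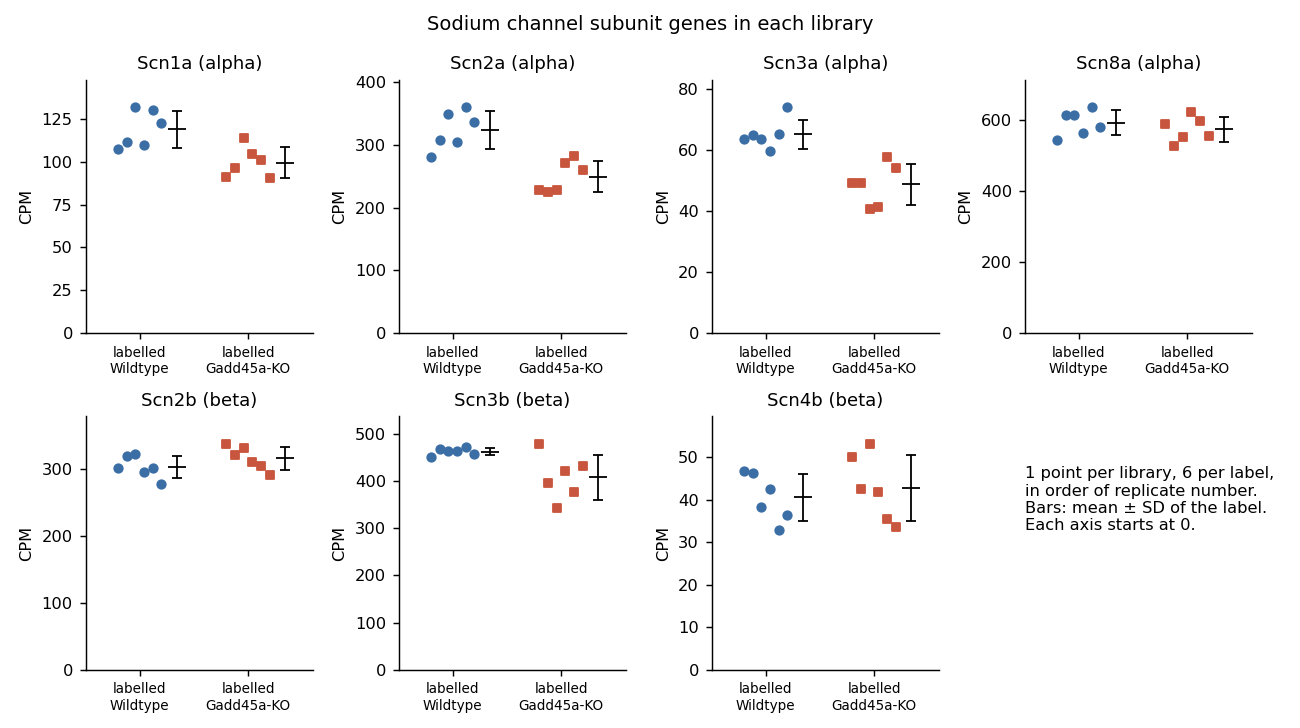
CPM of the 7 sodium channel genes (y axis, from 0) in each of 6 libraries labelled Wildtype (circles) and 6 labelled Gadd45a-KO (squares), with the mean and SD of each label beside the points. For Scn3a all squares lie below all circles, for Scn2a and Scn1a 5 of 6 do, and for Scn8a, Scn2b and Scn4b the labels overlap widely.

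None of the beta genes passed 1% or 5% FDR by edgeR. Scn2b, whose product is bound to alpha subunits by a disulfide bond, had 277, 301 and 322 CPM (lowest, median, highest) under the Wildtype label and 291, 315 and 337 under the Gadd45a-KO label, with wide overlap. The log2 fold change was 0.06 (SE 0.04, edgeR adjusted p = 0.637), with a 95% interval from -0.03 to 0.15. Scn4b, whose product is linked in the same way, was the beta gene of the lowest level, at 32.9, 40.4 and 46.8 CPM and 33.6, 42.1 and 53.2 CPM. Its log2 fold change was 0.08 (SE 0.12, edgeR adjusted p = 0.860), and it was -0.01 without Gadd45a-KO replicates 2 and 3, the libraries with the high thalamic sums.

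Scn3b, the beta gene of the highest level among the 3, stood apart from the other beta genes. It had 451, 463 and 471 CPM under the Wildtype label, a narrow range, and 342, 409 and 479 under the Gadd45a-KO label. Of the 6 libraries labelled Gadd45a-KO, 5 lay below all those labelled Wildtype, and replicate 1 lay above all of them. The log2 fold change was -0.18 (SE 0.06, edgeR adjusted p = 0.171, exact permutation p = 0.0173). Without that replicate the adjusted p was 0.0315 at a log2 fold change of -0.22. This was the only 1 of the 12 fits leaving out a single library in which Scn3b passed 5% FDR (edgeR adjusted p up to 0.336). It passed 5% FDR in 0 of the 10 other alternative fits, by edgeR or DESeq2 (adjusted p from 0.107 to 0.598). The SD of Scn3b was 7.40 CPM under the Wildtype label and 47.6 CPM under the Gadd45a-KO label.

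The long alpha genes were set against the shorter beta genes within each library as the mean log2 CPM of the former minus that of the latter. This value was 0.14 ± 0.16 under the Wildtype label and -0.12 ± 0.18 under the Gadd45a-KO label (SD, n = 6 each), with ranges from -0.04 to 0.33 and from -0.36 to 0.15. A total of 4 of the 6 libraries labelled Gadd45a-KO lay below all those labelled Wildtype, and the ranges overlapped. The mean of the fitted log2 fold changes was -0.27 over the alpha and -0.01 over the beta genes. Scn8a, at -0.05, was nearer to 0 than the other alpha genes, and Scn3b, at -0.18, was the only one of the 3 beta genes below 0.

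**Figure D2:**
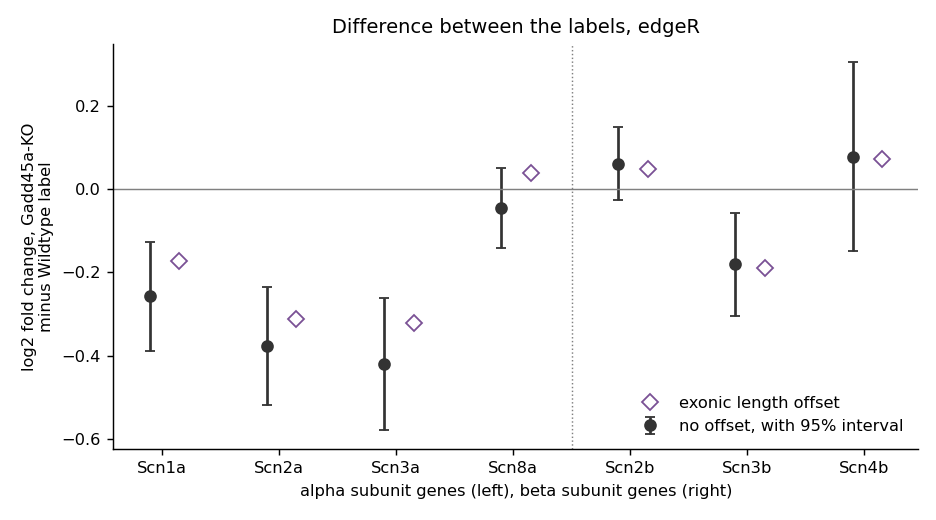
Log2 fold change of each sodium channel gene (y axis, libraries labelled Gadd45a-KO minus libraries labelled Wildtype) by edgeR, with its 95% interval (filled circles), and the value after an offset for exonic length (open diamonds). Scn1a, Scn2a and Scn3a lie below 0 in both, Scn8a moves from -0.05 to 0.04, and the beta genes hardly move.

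Among all genes tested, the log2 fold change was lower at great exonic length. In 10 bins of equal size, the median was 0.01 in the shortest and -0.07 in the longest bin, which starts at 7935 nt, and 12.8% of the 1637 genes of that bin were lower at 1% FDR. All 4 alpha genes were in that bin. Counted from the lowest log2 fold change of that bin, Scn3a was at percentile 2.20, Scn2a at 3.36, Scn1a at 15.0 and Scn8a at 56.2, so that Scn8a had a value near the median of genes of its length. The beta genes fell in the bins from 4138 to 5993 nt, with medians of 0.00 and -0.01, where Scn3b was at percentile 6.00, Scn2b at 76.3 and Scn4b at 82.2. The share of lower genes was also high at low GC content, 7.33% and 7.82% in the 2 bins of the lowest GC, which hold Scn1a, Scn2a and Scn3a but not Scn8a.

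With a smooth offset for exonic length in each library, Scn2a kept a log2 fold change of -0.31 (edgeR adjusted p = 0.00973) and Scn3a had -0.32 (edgeR adjusted p = 0.0294). Thus 1 of the 7 genes was lower at 1% FDR, beside 1.93% of all genes. Scn1a had -0.17 (edgeR adjusted p = 0.152) in that fit. All fits that left out libraries were run without that offset. There the 1% call of Scn2a held when Gadd45a-KO replicate 4 or 5 or Wildtype replicate 1 or 4 was left out. It was lost without each of the other 8 libraries (edgeR adjusted p from 0.0110 to 0.0216). The 1% call of Scn3a, likewise in fits without the offset, held without Gadd45a-KO replicate 5 or 6 or Wildtype replicate 4. It was lost without each of the other 9 libraries (edgeR adjusted p from 0.0102 to 0.0198). Without both Gadd45a-KO replicates 2 and 3 the log2 fold changes of Scn2a and Scn3a were -0.31 and -0.37 (edgeR adjusted p = 0.0394 and 0.0289). Both genes were past 5% FDR in each of these fits.

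**Figure D3:**
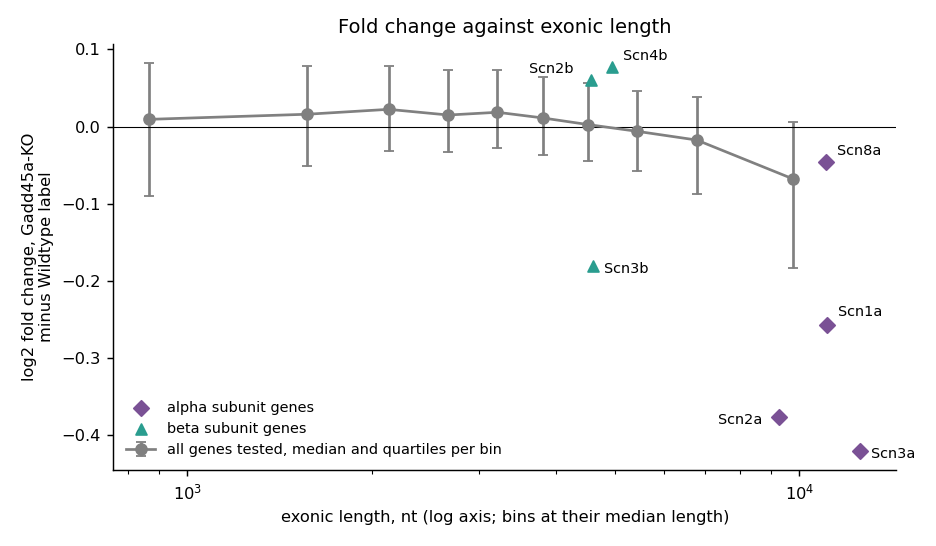
Log2 fold change (y axis, libraries labelled Gadd45a-KO minus libraries labelled Wildtype) against exonic length (x axis, nt, log scale). Grey points give the median and quartiles of all genes tested in 10 bins, and diamonds and triangles the 4 alpha and 3 beta genes. Scn2a, Scn3a and Scn3b lie below the lower quartile of genes of like length, Scn1a too, and Scn8a lies within the quartiles.

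Levels of different genes were compared as CPM per kb of exon. Under the Wildtype label the order was Scn3b with 100.4 ± 1.61, Scn2b with 66.3 ± 3.55, Scn8a with 53.6 ± 3.15, Scn2a with 34.9 ± 3.30, Scn1a with 10.7 ± 0.986, Scn4b with 8.21 ± 1.13 and Scn3a with 5.17 ± 0.381 CPM per kb (SD, n = 6 each). No neighbours in this order overlapped between their libraries under the Wildtype label. Under the Gadd45a-KO label the order of the means was the same, but Scn1a, from 8.16 to 10.3 CPM per kb, and Scn4b, from 6.81 to 10.8, overlapped. Levels of Scn1a and Scn3a depended on the length used and were 14.2 and 6.81 CPM per kb of the longest annotated transcript, on which scale the libraries of Scn3a, from 6.24 to 7.75, overlapped those of Scn4b, from 6.65 to 9.47.

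Since Scn2a and Scn3a were lower and Scn8a was not, the make-up of the alpha mRNAs differed between the labels. Scn8a made up 51.3% ± 1.36 of the summed alpha level per kb under the Wildtype label and 56.6% ± 1.49 under the Gadd45a-KO label (SD, n = 6 each), with ranges of 49.6% to 53.4% and 55.1% to 59.1% that did not overlap. Scn2a made up 33.4% ± 1.09 and 29.3% ± 1.53, with ranges of 32.0% to 34.3% and 27.4% to 31.0%, again without overlap. Scn1a contributed 10.3% and 9.83%, and Scn3a 4.97% and 4.23%, with overlapping ranges. The summed alpha level was 104 ± 7.14 and 91.7 ± 5.48 CPM per kb. These shares use the same reads as the tests above and are given as a description.

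**Figure D4:**
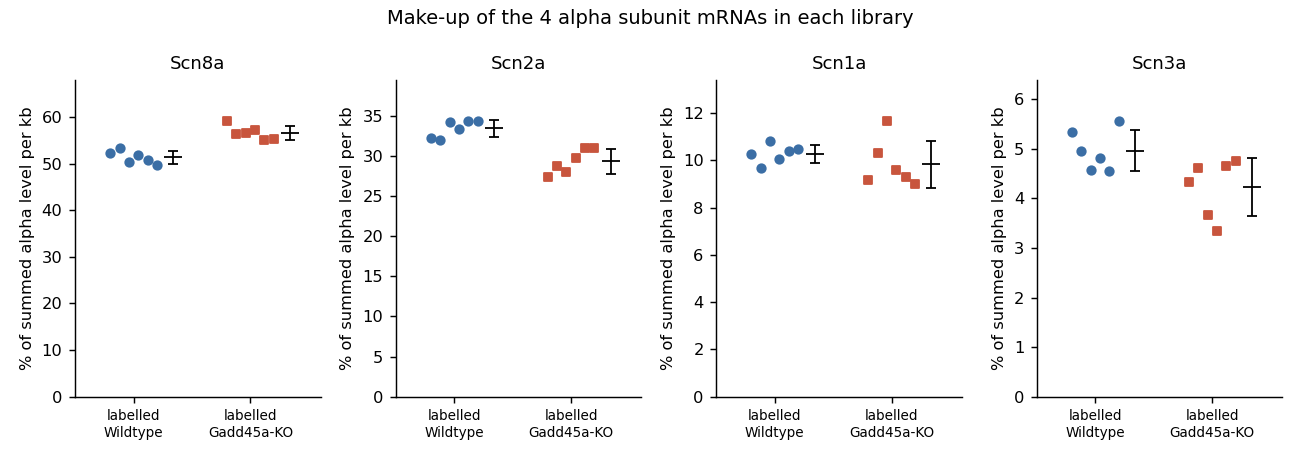
Share of each alpha gene in the summed alpha level per kb of exon (y axis, percent, from 0) in each library, circles labelled Wildtype and squares labelled Gadd45a-KO, with the mean and SD beside the points. The labels separate for Scn8a, with means of 51.3% and 56.6%, and for Scn2a, with means of 33.4% and 29.3%.

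The ratio of Scn2a, the Nav1.2 gene, to Scn8a, the Nav1.6 gene, was -0.88 ± 0.08 on the log2 CPM scale under the Wildtype label and -1.21 ± 0.11 under the Gadd45a-KO label (SD, n = 6 each), and the labels did not overlap. The log2 ratio of Scn2a to Scn3a was 2.31 ± 0.14 and 2.36 ± 0.20, with overlapping ranges. Among the beta genes, the log2 ratio of Scn3b to Scn2b was 0.61 ± 0.07 and 0.37 ± 0.19, and 5 of the 6 libraries labelled Gadd45a-KO lay below all those labelled Wildtype. Around the label means, Scn2a varied with Scn8a over the 12 libraries (Pearson r = 0.73) and against Scn4b (r = -0.82), and Scn2b with Scn4b (r = 0.67). These correlations share libraries and scaling and are descriptions.

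Other sodium channel genes of the chromosome 2 cluster and beyond had few reads. Scn7a, a sodium sensor, had 52 to 215 reads per library and Scn9a, the alpha gene of nociceptors, 49 to 108, and their log2 fold changes were 0.10 and -0.24 (edgeR adjusted p = 0.947 and 0.744). Scn4a, the skeletal muscle gene, had 3 to 10 reads, and the sensory neuron genes Scn10a and Scn11a had 0 to 3 reads, and these 3 genes were not tested.

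Of 44 genes of channel partners and regulators, 41 were tested, and 3 were lower at 1% FDR by edgeR, beside 2.62% of all genes, and 7 by DESeq2, beside 4.15%. None was higher at 1% FDR by either tool. At an unadjusted p under 0.05, 12 were lower, beside 9.35% of all genes, and 0 were higher, beside 4.34%. The median log2 fold change of the 41 genes was -0.05, beside 0.00 over all genes tested. These shares are not matched for exonic length, and many of the 41 genes are long. In the longest bin of all genes, from 7935 nt, 12.8% were lower at 1% FDR and the median was -0.07. With the exonic length offset, 2 of the 41 genes were lower at 1% FDR by edgeR, beside 1.93% of all genes. The genes of the sodium leak channel, which passes a resting sodium current, were the pore gene Nalcn and its auxiliary genes Unc79 and Unc80, and 1 of the 3 was lower. Unc80 was at 374 ± 13.7 CPM under the Wildtype label, from 353 to 393, and at 304 ± 12.3 under the Gadd45a-KO label, from 289 to 318 (SD, n = 6 each), without overlap. Its log2 fold change was -0.30 (SE 0.04, edgeR adjusted p = 0.000191), and with the exonic length offset it was -0.16 (edgeR adjusted p = 0.00894) for this gene of 17350 nt. Nalcn and Unc79 had log2 fold changes of -0.20 and -0.15 (edgeR adjusted p = 0.0839 and 0.148).

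Of 13 genes of the axon initial segment and the node of Ranvier, where alpha subunits are anchored, 1 was lower at 1% FDR by edgeR, beside 2.62% of all genes. By DESeq2 3 were lower, beside 4.15%, and the median log2 fold change was -0.07. Most of the 13 genes have more than 7935 nt of exon, where the longest bin of all genes starts, and that bin also had a median of -0.07. With the exonic length offset 0 of the 13 were lower at 1% FDR by edgeR, beside 1.93% of all genes. Cntnap2, a cell adhesion gene of the juxtaparanode, was at 104 ± 13.4 and 76.9 ± 8.04 CPM (SD, n = 6 each), from 89.4 to 127 and from 67.3 to 88.1, without overlap, at a log2 fold change of -0.43 (SE 0.08, edgeR adjusted p = 0.00657). That call was lost with the length offset (adjusted p = 0.0135), and of the fits that leave out 1 library it held only without Gadd45a-KO replicate 4 or Wildtype replicate 1 (adjusted p up to 0.0245 in the other 10). Without Gadd45a-KO replicates 2 and 3 together the adjusted p was 0.0391. The 3 other genes of the highest level were the spectrin gene Sptbn1, the ankyrin gene Ank2 and the contactin gene Cntn1, with log2 fold changes of -0.11, -0.17 and -0.07. Ank3, which encodes ankyrin-G, the anchor of alpha subunits at the initial segment, had 307 ± 13.6 and 292 ± 12.3 CPM and a log2 fold change of -0.07 (edgeR adjusted p = 0.458).

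Of the 4 genes of FGF homologous factors, which bind the tail of alpha subunits, 0 passed 1% FDR by edgeR. By DESeq2 1 was lower, beside 4.15% of all genes, and the median log2 fold change was -0.04. At an unadjusted p under 0.05, 1 was lower, beside 9.35% of all genes. It was Fgf14, at a log2 fold change of -0.20 (edgeR adjusted p = 0.0254). The 3 of the highest level were Fgf13 with a log2 fold change of 0.04, Fgf12 with 0.01 and Fgf11 with -0.08. The calmodulin genes Calm2 and Calm3 had values of -0.03 and -0.05 (edgeR adjusted p = 0.899 and 0.769). Of 14 genes of kinases, ubiquitin ligases and transport, 1 was lower at 1% FDR by edgeR, beside 2.62% of all genes. By DESeq2 2 were lower, beside 4.15%, and the median log2 fold change was -0.04. Kif5b, a kinesin heavy chain gene of axonal transport, was at 217 ± 12.5 and 185 ± 9.08 CPM (SD, n = 6 each), with 5 of 6 libraries labelled Gadd45a-KO below all those labelled Wildtype, at a log2 fold change of -0.23 (SE 0.04, edgeR adjusted p = 0.00551). Of the fits that leave out 1 library, that call held only without Gadd45a-KO replicate 3 or 5 or Wildtype replicate 1 (adjusted p up to 0.0240 in the other 9). It was also lost with the GC offset (adjusted p = 0.0229) and without Gadd45a-KO replicates 2 and 3 together (0.0132). Map1b, the microtubule gene of the highest level in that list, had -0.24 (edgeR adjusted p = 0.0376), while the ubiquitin ligase gene Nedd4 had -0.05 and the protein kinase C gene Prkca -0.11.

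**Figure D5:**
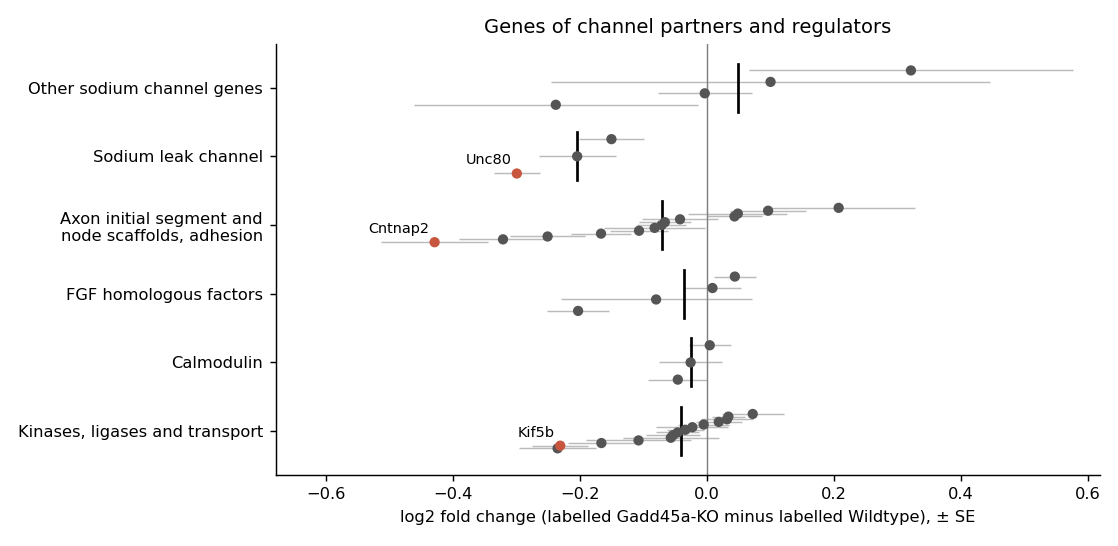
Log2 fold change with SE (x axis, libraries labelled Gadd45a-KO minus libraries labelled Wildtype) of 41 genes in 6 lists of sodium channel partners and regulators, 1 point per gene, with the median of each list as a black bar. Red points passed 1% FDR and are Unc80, Cntnap2 and Kif5b, all below 0.

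The chromosome 2 cluster spans 1327797 nt from Scn3a to Scn7a and holds 10 genes tested. Of these, 3 were lower at 1% FDR by edgeR, beside 2.62% of all genes, and these 3 include Scn2a and Scn3a, reported above. Beside Scn2a and Scn3a this was Csrnp3, a nuclear protein gene between Scn2a and Galnt3, at 89.0 and 76.0 CPM and a log2 fold change of -0.23 (SE 0.03, edgeR adjusted p = 0.00107), without overlap between the labels. Csrnp3 has 12334 nt of exon, and its value was -0.13 with the length offset, not past 1% FDR. The shorter Galnt3 and the 9308 nt Ttc21b, between Csrnp3 and Scn1a, had 0.02 and -0.06, and the remaining genes Gm13630 and Gm13629 had -0.19 and 0.01 at about 1 CPM. Gm13629 overlaps exons of Scn9a on the opposite strand. The nearest genes tested beside Scn8a (Slc4a8 and Acvrl1), Scn3b (Zfp202 and Gramd1b) and the Scn2b and Scn4b pair (Mpzl3 and Il10ra) had log2 fold changes of -0.10, 0.18, 0.04, -0.05, -0.03 and 0.09, none past 5% FDR by edgeR.

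The genes whose log2 CPM varied most like each sodium channel gene around the label means were found over the 12 libraries by Pearson's r. For Scn2a these were the adrenergic receptor gene Adra1a (r = 0.96), the methionine synthase gene Mtr (0.96) and the splicing helicase gene Snrnp200 (0.96). For Scn3a they were Lyst (0.96), Klf10 (0.95) and Nsun7 (0.94), and for Scn1a Ak8 (0.96), Kif9 (0.94) and Klf6 (0.94). The 3 for Scn8a were the muscarinic receptor gene Chrm5 (0.94), its chromosomal neighbour Slc4a8, a sodium bicarbonate transporter gene (0.94), and Gnaq (0.93). Scn2b varied most like Nomo1 (0.97), Neto2 (0.93) and Ywhaz (0.93), Scn3b like Lmo3 (0.95), the potassium channel beta subunit gene Kcnab1 (0.95) and Nmt1 (0.94), and Scn4b like Mepce (0.95), Itgb7 (0.94) and Sp2 (0.94). No sodium channel gene was among the 3 most alike of another. Picking the highest r among many genes over 12 libraries gives high values by selection, so these are descriptions and no test was made. Ak8, Chrm5 and Itgb7 also had low levels, with label means from 0.48 to 1.93 CPM.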

How the data were processed

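Poly(A) RNA from 12 hippocampi was made into stranded TruSeq libraries and sequenced as single reads of 51 nt on an Illumina HiSeq. The authors aligned reads with TopHat 1.4.1 to NCBIM37/mm9, allowing several alignments per read, and deposited raw counts per Ensembl gene from htseq-count (HTSeq 0.5.4p3, reverse strand), without pooling. The 5 rows naming no gene were left out of library sizes. They held the reads on no feature (11.5% to 13.9%), the ambiguous ones and those with several alignments. Gene names, exon lengths and sequences came from GENCODE vM1 and its genome, of the same build. A name was found for 37205 of 37991 IDs.

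Counts were filtered with filterByExpr, scaled by TMM and tested with edgeR 4.0.16 (quasi-likelihood, no covariate) over 16399 genes, with Benjamini-Hochberg adjustment at 1% FDR. CPM use the TMM-scaled library sizes, and log2 CPM a prior count of 2. SEs were taken from the log2 fold change and the F statistic. For each of the 7 members, label means of log2 CPM were also compared over all 924 splits by an exact permutation test, two-sided. Alternatives were RLE size factors, other filters, DESeq2 1.42.0, 5% FDR, a replicate block, spline offsets (5 df) for exonic length or GC content, and leaving out libraries. Leaving out Gadd45a-KO replicates 2 and 3 together was chosen after seeing the data. On simulated counts for 16305 genes, edgeR recovered 170 of 200 changed genes and called 2 others. The changed genes had a median fitted log2 fold change of 0.99 in size, above that of every sodium channel gene here. Recovery of smaller changes was not tested. With 44594261 to 55540601 gene reads per library, counting error was small beside the spread between mice. Pairs of libraries of 1 label differed by more than sampling noise (chi-square per degree of freedom of at least 9.03), so that each counted as 1 replicate.

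The 7 members and all lists were chosen with earlier results of these data known. The text names all members, other sodium channel genes, every partner gene at 1% FDR and up to 3 others per list by level, the 3 most alike genes per member and the chromosomal neighbours. Ank3 was named beyond that rule for its role, after its values were seen. Fgf14 was named beyond it as the gene of its list that was lower at an unadjusted p under 0.05. Some genes of these lists and the sequences of the alpha genes are not reported here.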

Additional observations from a re-analysis of the deposited data

Results flagged for a closer look

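Groups of 6 libraries were examined for a single library far from the other 5 of its label, over the members, their ratios and shares, Gadd45a and its antisense gene, the called partner genes, summed marker lists and measures of the libraries. The gap to the nearest library, as a share of the whole range, passed Dixon's 95% limit in 4 of 90 groups, where chance alone gives about 4.5. Scn3a was highest in Wildtype replicate 6, at 74.0 CPM against 65.0 in the next library of its label, and without that library its log2 fold change was -0.37 (edgeR adjusted p = 0.0188). E230016M11Rik was highest in Wildtype replicate 6 as well, at 3.88 CPM against 3.47. The summed oligodendrocyte genes were highest in Gadd45a-KO replicate 3, at 7348 CPM against 3755, and the summed astrocyte genes lowest in the same library, at 3841 CPM against 4256. Without that library the log2 fold changes of Scn2a and Scn3a were -0.34 and -0.37 (edgeR adjusted p = 0.0153 and 0.0111).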

How the results depend on the processing

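The direction of Scn1a, Scn2a, Scn3a, Scn2b and Scn3b and the sign of the difference between alpha and beta fold changes (-0.31 to -0.17) held in all 22 alternative fits. Signs turned for Scn8a, to 0.0378 with the exonic length offset and 0.0369 with that and the replicate block, and for Scn4b, to -0.0109 without Gadd45a-KO replicates 2 and 3. The count of sodium channel genes lower at 1% FDR, 2 as reported, was 1 with the length offset, 0 without Gadd45a-KO replicates 2 and 3, which also means fewer samples, and 0 to 2 when each library was left out in turn. None was higher in any of these fits. Over all genes, 667 were lower with DESeq2, 726 at 5% FDR, 199 without Gadd45a-KO replicates 2 and 3 and 239 to 467 when each library was left out. Higher genes numbered 18 with DESeq2, 12 with the GC offset, 16 with that and the block, 10 with the length offset, 11 with that and the block, 20 at 5% FDR and 3 to 4 when each library was left out. The cause of these changes was not tested. Scn2a was past 1% FDR in 13 and Scn3a in 11 of the 22 fits. Levels per kb of the longest transcript were 14.2 for Scn1a, 6.81 for Scn3a and 102 for Scn3b.

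The labels share replicate numbers 1 to 6, but no source says that a number marks a litter or day. Deviations of same-numbered libraries correlated from -0.0761 to 0.262, with 5 of 6 over 0.1. Their mean was 0.140, beside -0.0279 for libraries of different numbers, and 4 of 12 libraries correlated best with their own number. These values do not settle whether the numbers mark pairs. The main fit did not take them as pairs, and the block was run as an alternative. With the replicate block 3 sodium channel genes were lower, Scn1a being added (log2 fold change -0.26, edgeR adjusted p = 0.00873), as were 6 of the partner genes and 509 of all genes. The 51 nt single reads limit how well Scn2a and Scn3a can be told apart.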
